A study of Homo sapiens with 8 samples.

Results

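Axon guidance genes encode guidance cues and their receptors, and 33 of the 11818 gene symbols in the table belong to the families described here: Eph receptors, ephrins, semaphorins, plexins, netrins, UNC5 genes, Robo receptors and contactins. They were taken as symbols that begin with EPHA, EPHB, EFNA, EFNB, SEMA, PLXNA to PLXND, UNC5A to UNC5D, NTN, ROBO, SLIT or CNTN, followed by a family number where the name has one; 1 plexin is not reported here. Of the protein-coding genes of GENCODE v29, 72 fit the same patterns, and those with values here are 5 of 14 Eph receptors, 5 of 8 ephrins, 10 of 20 semaphorins, 7 of 8 plexins, 1 of 4 netrins, 2 of 5 UNC5 genes, 2 of 4 Robo receptors and 1 of 6 contactins, with no Slit. The others are not analysed here.

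Poly(A)-selected RNA was sequenced from HCCLM3, a highly metastatic human hepatocellular carcinoma cell line grown in medium with serum. The 4 siRNA libraries came from cells transiently transfected with an siRNA against circPTK2, a circular RNA of the PTK2 gene, and have the genotype circPTK2 knock down; the circular RNA itself was not analysed here. The 4 NC libraries have the genotype WT. The labels do not expand NC and leave unsaid whether these cells were given a control siRNA. Since they name no separate cultures either, every p-value below reflects the spread between libraries, which may be technical. The study's stated question was how silencing circPTK2 changes downstream signalling in this line.

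As background, Eph receptors are tyrosine kinases that bind ephrins on a neighbouring cell and signal in both directions at the contact. Semaphorins act through plexins, with neuropilins as co-receptors for the secreted class 3 members, and plexins control small GTPases and the actin cytoskeleton. Netrins bind DCC, neogenin and the UNC5 receptors, of which UNC5B is known as a dependence receptor and from blood vessels. Slits bind Robo receptors, and contactins are immunoglobulin-domain adhesion proteins held at the membrane by a lipid anchor. All are best known from growing axons, and several are known in epithelial and tumour cells for roles in cell contact, migration and invasion.

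The values are reads per gene divided by a scaled library size, called the table value below. Recovered reads on the listed genes ran from 28077305 to 32532669 in the siRNA libraries and from 37087203 to 43512175 in the NC libraries. By their values the NC libraries formed pairs, replicates 1 with 2 and 3 with 4, for which the labels give no reason, so each pair is also given apart. Of 10 hepatocyte and hepatocellular carcinoma markers 7 were listed, with summed values of 2668 to 2751 in siRNA libraries and 2913 to 5570 in NC libraries, most of it from KRT8 and KRT18. They moved in both directions: ALB, HNF4A and SERPINA1 rose, KRT8, AFP and APOB fell, and KRT18 did not pass (limma adjusted p = 0.254). SERPINA1 had 4.01 to 6.76 in siRNA libraries and 0 to 0.210 in NC libraries, and APOB had 0.178 to 0.723 in siRNA libraries and 2.61 to 15.2 in NC libraries. These genes were in the table only through the group in which each is high, so their directions are no support here. Of 9 neuronal and glial markers only MAP2 was listed, at 42.1 to 59.3 in siRNA libraries and 31.6 to 115.9 in NC libraries. Of 6 endothelial markers only PECAM1 was listed, at 3.25 to 4.93 in siRNA libraries and 7.53 to 19.8 in NC libraries. Other cell types were represented by LUM alone of 6 fibroblast markers, at 15.5 to 25.5 in siRNA libraries and 20.3 to 64.0 in NC libraries, and by CD68 alone of 5 leukocyte markers, at 76.3 to 140.1 in siRNA libraries and 52.3 to 91.0 in NC libraries. Their part in the results below was not tested.

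Across the 33 genes, 3 rose and 9 fell in siRNA libraries relative to NC libraries (limma on log2(value + 1), adjusted p under 0.05 over all genes). That is 36.4% of the members, beside 42.5% of the 11812 genes tested; by direction, 21.7% of all genes were higher and 20.8% lower. The contactin CNTN6, the Eph receptor EPHB2 and the secreted semaphorin SEMA3C rose. The Eph receptor EPHB3, the ephrin EFNA4, the semaphorins SEMA3D, SEMA4B and SEMA4C, the plexins PLXNA2, PLXNB3 and PLXND1, and UNC5CL fell. Past the threshold with an absolute log2 change of at least 1 were 8 of the 33 members, beside 12.2% of all genes tested. The median log2 change was -0.08 over the members and 0.012 over all genes. In a bulk culture, fewer cells that express a gene and less RNA per cell cannot be told apart. SEMA3D and UNC5CL were above 1 only in NC libraries and CNTN6 only in siRNA libraries, so these 3 were in the table only through the group in which they are high, and their calls are no support in any count of members here. Of the 30 others, 2 rose and 7 fell.

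**Figure D1:**
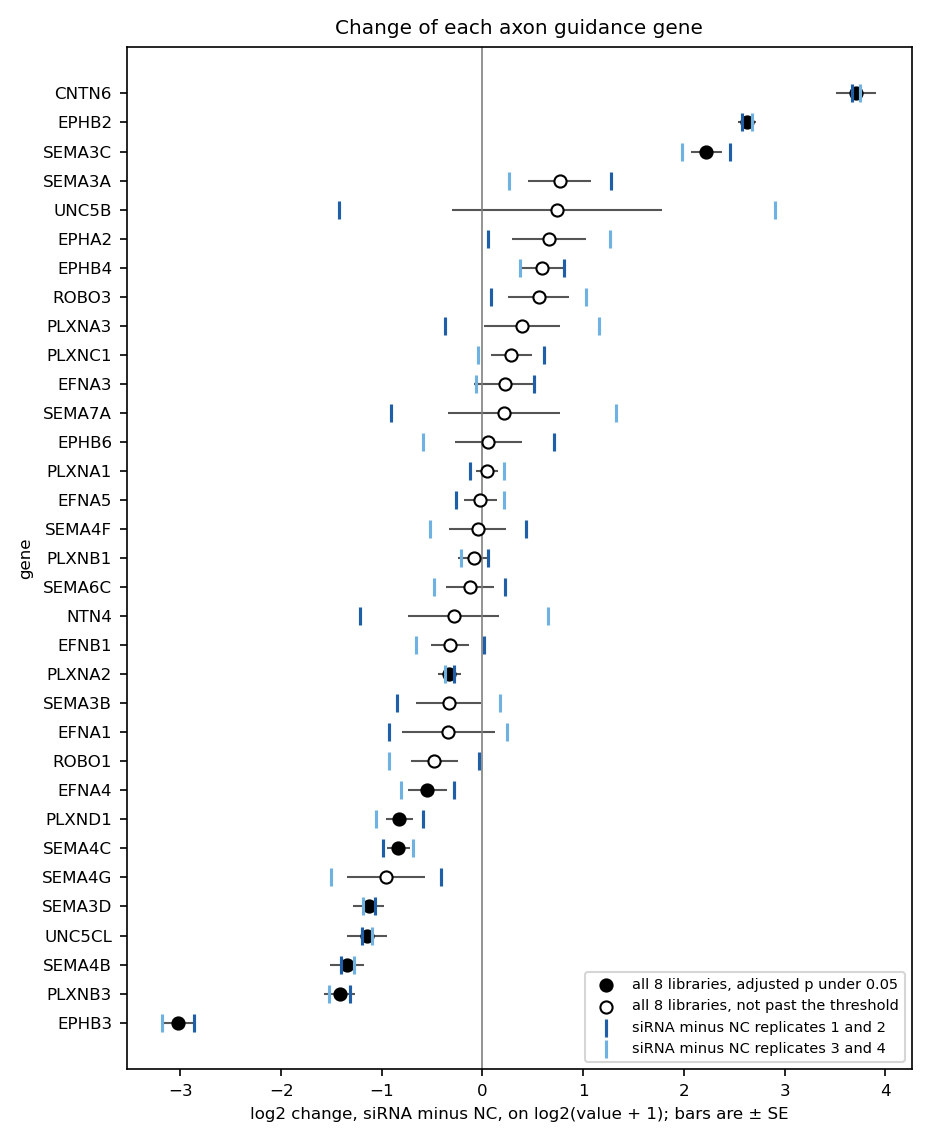
Log2 change of each of the 33 genes (siRNA minus NC, on the log2(value + 1) scale, with bars of ± SE), filled where the limma adjusted p was under 0.05; ticks give the change against NC replicates 1 and 2 (dark blue) and against NC replicates 3 and 4 (light blue). CNTN6, EPHB2 and SEMA3C lie furthest to the right and EPHB3 furthest to the left, with their ticks close together, whereas the ticks of UNC5B, SEMA7A, NTN4 and PLXNA3 lie on opposite sides of 0.

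The receptors EPHB2 and EPHB3 moved in opposite directions. Both bind ephrin-B ligands and are known as Wnt targets that place cells along the intestinal crypt. EPHB2 (chromosome 1, 22710839 to 22921500, plus strand, GRCh38) had 98.1, 97.0, 93.1 and 87.2 in siRNA replicates 1 to 4, against 15.5, 14.3, 13.7 and 14.0 in NC replicates 1 to 4. The groups did not overlap, and the NC pairs lay together. The means were 93.9 ± 4.94 in siRNA libraries and 14.4 ± 0.818 in NC libraries (SD, n = 4 each), 6.54-fold higher, with a log2 change of 2.63 (SE 0.09, limma adjusted p = 6.2e-07).

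EPHB3 (chromosome 3, 184561784 to 184582409, plus strand) had 1.82, 1.85, 2.07 and 2.53 in siRNA replicates 1 to 4, against 22.2, 20.4, 27.7 and 25.7 in NC replicates 1 to 4. Every siRNA library was below every NC library. The means were 2.07 ± 0.328 in siRNA libraries and 24.0 ± 3.31 in NC libraries (SD, n = 4 each), 11.6-fold lower, with a log2 change of -3.02 (SE 0.14, limma adjusted p = 4.52e-06). Its reads numbered 51 to 70 in siRNA libraries and 758 to 1279 in NC libraries.

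Exon length was taken over all annotated transcripts, 12516 bases for EPHB2 and 4532 for EPHB3, and ratios between genes rest on it. Per kb of exon, the EPHB2 level was 12.5 to 19.6 times that of EPHB3 in siRNA libraries. In NC libraries the EPHB2 level was 0.178 to 0.254 times that of EPHB3. EPHB3 thus stood above EPHB2 in all 4 NC libraries and below it in all 4 siRNA libraries. Of the summed level per kb of the 4 listed EPHB receptors, EPHB2 made up 32.3% to 37.9% in siRNA libraries and 5.41% to 9.62% in NC libraries. EPHB3 made up 1.82% to 2.60% in siRNA libraries and 27.5% to 37.9% in NC libraries. EPHB4 had the largest share of the 4 in each siRNA library, at 45.0% to 49.7%. It also had the largest in NC replicates 1, 3 and 4, at 50.3%, 34.1% and 45.6%. In NC replicate 2 EPHB3 was ahead, at 37.9% beside 35.5% for EPHB4.

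The 250 bases before the first listed RefSeq start of each of these receptors (GRCh38.p14) are shown because their changes were opposed. Capitals mark each CG. EPHB2 has 2 listed starts and EPHB3 has 1, and the other EPHB2 start was not examined. The EPHB2 window is chr1:22710588-22710837 and the EPHB3 window is chr3:184561535-184561784, both on the plus strand.
EPHB2: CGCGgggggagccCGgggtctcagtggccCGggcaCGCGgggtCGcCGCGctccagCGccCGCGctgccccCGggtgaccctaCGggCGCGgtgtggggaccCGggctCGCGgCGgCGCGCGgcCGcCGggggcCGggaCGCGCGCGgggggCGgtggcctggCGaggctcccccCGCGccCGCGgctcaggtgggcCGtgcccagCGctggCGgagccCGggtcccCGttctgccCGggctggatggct
EPHB3: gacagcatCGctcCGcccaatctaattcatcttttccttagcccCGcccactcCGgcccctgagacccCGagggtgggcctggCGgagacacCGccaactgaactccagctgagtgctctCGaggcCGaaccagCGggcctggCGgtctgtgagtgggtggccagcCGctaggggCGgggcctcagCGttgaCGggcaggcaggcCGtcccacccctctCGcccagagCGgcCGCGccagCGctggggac
The EPHB2 window holds 42 CG pairs and the EPHB3 window 21, and fewer were found in the same window of 98.7% and 70.2% of 27305 genes, whose median was 11. Both windows hold the GC-box letters GGGCGG, read on both strands, which can overlap a CG pair. The letters were found in 24 of the 31 members with an entry (77.4%) and in 42.3% of the 27305 genes. Among those 31 members the median was 19 CG pairs. The 27305 are all RefSeq symbols with an entry, not only genes with values here, so they and the members are unlike sets. These counts describe the reference sequence only, and no measurement here bears on methylation or binding.

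The other Eph receptors did not pass. EPHA2, a receptor of ephrin-A ligands that is abundant in many carcinomas, had the highest level per kb of the 33 genes averaged over the 8 libraries. Its values were 426, 419, 326 and 322 in siRNA replicates 1 to 4, against 263, 481, 201 and 117 in NC replicates 1 to 4. The siRNA values lay within the NC range, and the log2 change was 0.66 (SE 0.37, limma adjusted p = 0.18). NC replicate 2 was the highest of the 8 libraries for this gene. Leaving it out gave a log2 change of 1.01 (limma adjusted p = 0.0133), and EPHA2 passed against NC replicates 3 and 4 (1.26, limma adjusted p = 0.00449) but not against NC replicates 1 and 2 (0.06, limma adjusted p = 0.869). EPHB4, the receptor of ephrin-B2, had means of 67.2 ± 5.77 in siRNA libraries and 46.0 ± 14.3 in NC libraries (SD, n = 4 each; limma adjusted p = 0.06), and its exons overlap SLC12A9 on the other strand. EPHB4 passed against NC replicates 1 and 2 alone (log2 change 0.81, limma adjusted p = 0.0215) and against NC replicates 3 and 4 alone (0.37, limma adjusted p = 0.0266). It also passed with DESeq2 (adjusted p = 0.0485) and without NC replicate 4 (limma adjusted p = 0.0242). It did not pass with edgeR (adjusted p = 0.0771) or on library totals (limma adjusted p = 0.119). Nor did it when any other single library was left out (the highest limma adjusted p was 0.136), or with 10 Mb medians removed (0.36, limma adjusted p = 0.222). EPHB6, a member without kinase activity, had 16.5 to 20.2 in siRNA libraries, between 10.4 and 10.7 in NC replicates 1 and 2 and 31.9 and 23.5 in NC replicates 3 and 4 (limma adjusted p = 0.904).

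Among the 5 ephrins, EFNA4 alone passed, and narrowly. The means were 10.8 ± 1.33 in siRNA libraries and 16.5 ± 4.14 in NC libraries (SD, n = 4 each), 1.53-fold lower (log2 change -0.55, SE 0.19, limma adjusted p = 0.0472). The groups overlapped, since NC replicate 2 was at 11.0, and the gene did not pass in 7 of the 8 fits that left out 1 library (the highest limma adjusted p was 0.121). EFNA4 lies with EFNA3 and EFNA1 on chromosome 1, in a stretch of 10 Mb whose 131 genes had a median change of -0.62 (log2). With 10 Mb medians removed in each library, EFNA4 was at 0.089 (limma adjusted p = 0.719). EFNA3 and EFNA4 both overlap the annotated gene AL691442.1 on the same strand, so their reads are uncertain. EFNB1, the membrane-spanning ephrin that EPHB receptors bind, had the highest level per kb of the ephrins, with 66.5, 65.8, 58.7 and 58.6 in siRNA replicates 1 to 4, against 58.8, 64.2, 107.7 and 91.2 in NC replicates 1 to 4. NC replicates 3 and 4 were the high libraries and the other 6 overlapped (log2 change -0.32, SE 0.19, limma adjusted p = 0.201). It passed against NC replicates 3 and 4 alone (log2 change -0.66, limma adjusted p = 0.000145) and with 10 Mb medians removed (log2 change -0.40, limma adjusted p = 0.021). The lipid-anchored ephrins EFNA1, EFNA3 and EFNA5 did not pass (limma adjusted p = 0.583, 0.594 and 0.928), and EFNA1 ranged from 9.97 to 62.1 within the NC group.

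**Figure D2:**
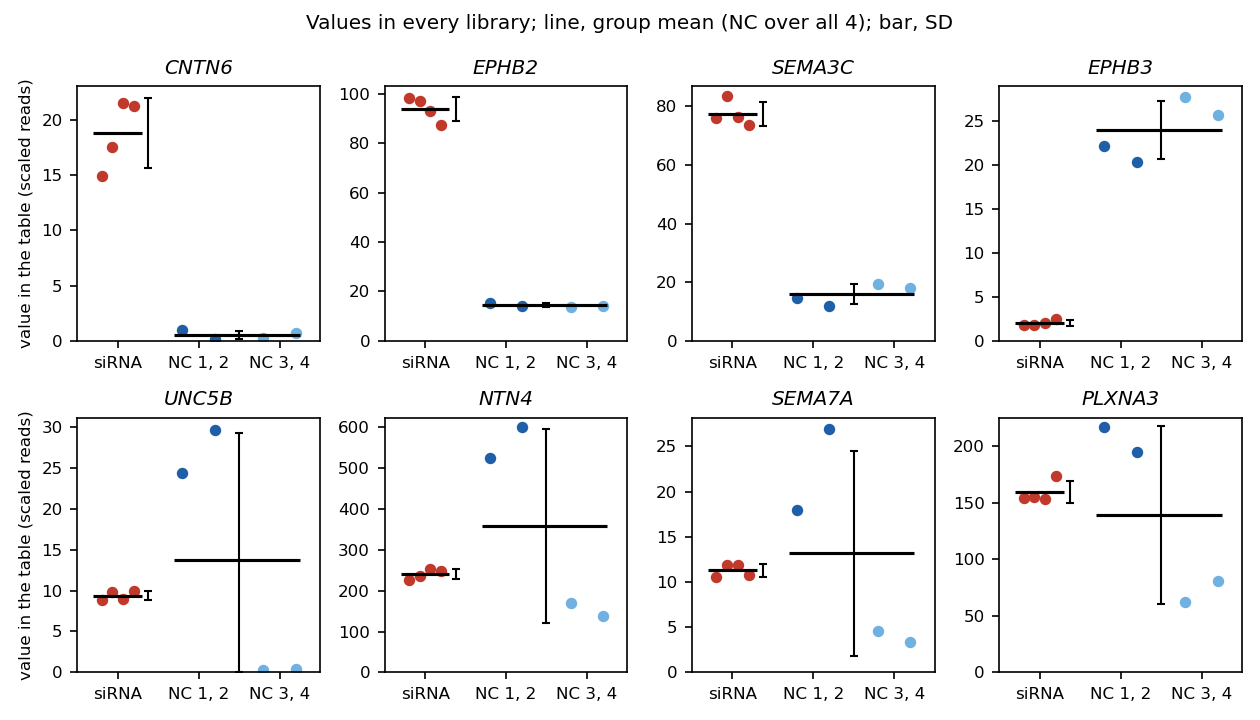
Table values of 8 genes in every library (siRNA red, NC replicates 1 and 2 dark blue, NC replicates 3 and 4 light blue), with the group mean as a line and ± SD as a bar, cut at 0 for UNC5B. In the upper row the siRNA values of CNTN6, EPHB2 and SEMA3C lie above all NC values and those of EPHB3 below them, and in the lower row the siRNA values of UNC5B, NTN4, SEMA7A and PLXNA3 lie between the NC pairs.

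The semaphorins changed in both directions, with 1 of 10 higher and 3 lower, where 21.7% of all genes were higher and 20.8% lower. SEMA3C is a secreted cue known from tumour growth and invasion. It had 75.9, 83.3, 76.3 and 73.6 in siRNA replicates 1 to 4, against 14.8, 11.8, 19.4 and 18.1 in NC replicates 1 to 4. No siRNA library overlapped an NC library. The means were 77.3 ± 4.19 in siRNA libraries and 16.0 ± 3.45 in NC libraries (SD, n = 4 each), 4.83-fold higher, with a log2 change of 2.22 (SE 0.15, limma adjusted p = 2.5e-05). SEMA3C lies on chromosome 7 (80742538 to 80922359, minus strand) near SEMA3A and SEMA3D, in a 10 Mb stretch whose 10 genes, SEMA3A and SEMA3C among them, had a median log2 change of 0.69. With 10 Mb medians removed the SEMA3C change was 1.60 (limma adjusted p = 4.86e-05).

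SEMA3D, another secreted class 3 member, had 0.178, 0.390, 0.308 and 0.506 in siRNA replicates 1 to 4, against 2.24, 1.43, 2.23 and 1.90 in NC replicates 1 to 4. These values rest on 5 to 14 reads in siRNA libraries and 53 to 103 in NC libraries. The groups did not overlap (log2 change -1.13, SE 0.15, limma adjusted p = 0.000628), but the gene was in the table only through the NC libraries. With the median of the stretch removed, the SEMA3D change was -1.75 (limma adjusted p = 7.98e-05). SEMA3A, the founding repellent of the family, had 52.2 to 58.8 in siRNA libraries, against 28.0, 17.9, 33.8 and 63.4 in NC replicates 1 to 4. It did not pass (log2 change 0.77, SE 0.31, limma adjusted p = 0.0787), but it did once NC replicate 4, its highest library, was left out (limma adjusted p = 0.00364). Its log2 change was 1.27 against NC replicates 1 and 2 (limma adjusted p = 8.85e-05), 0.26 against NC replicates 3 and 4 (limma adjusted p = 0.323) and 0.15 with the median of the stretch removed (limma adjusted p = 0.691). Of the summed level per kb of the 4 class 3 members, SEMA3C held 65.6% to 66.4% in siRNA libraries and 28.0% to 43.1% in NC libraries.

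The class 4 semaphorins span the membrane. SEMA4B had the highest level per kb of the 10 semaphorins over the 8 libraries. Its values were 66.2, 73.7, 60.2 and 63.7 in siRNA replicates 1 to 4, against 137.4, 226.1, 188.7 and 137.6 in NC replicates 1 to 4. All siRNA libraries were lower than all NC libraries. The means were 66.0 ± 5.73 in siRNA libraries and 172.5 ± 43.1 in NC libraries (SD, n = 4 each), 2.61-fold lower (log2 change -1.34, SE 0.17, limma adjusted p = 0.000423). SEMA4B lies at 90160604 to 90229679 on chromosome 15, where the 24 genes of its 10 Mb stretch had a median change of -0.75 (log2). With 10 Mb medians removed the SEMA4B change was -0.56 (limma adjusted p = 0.0386). SEMA4C fell 1.83-fold, to 24.3 ± 1.17 in siRNA libraries, against 44.3 ± 5.53 in NC libraries (SD, n = 4 each, limma adjusted p = 0.000561). Of the semaphorin level per kb, SEMA3C made up 33.1% to 34.6% in siRNA libraries and 3.57% to 7.16% in NC libraries. SEMA4B made up 24.4% to 27.3% in siRNA libraries and 48.3% to 61.5% in NC libraries. SEMA3C was thus the semaphorin with the largest share in each siRNA library, and SEMA4B in each NC library.

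SEMA4G did not pass (log2 change -0.96, SE 0.39, limma adjusted p = 0.0741) but did with DESeq2 (adjusted p = 0.0138) and without NC replicate 2 (limma adjusted p = 0.00675); its exons overlap MRPL43 on the other strand. The SEMA4G change was -1.50 against NC replicates 3 and 4 (limma adjusted p = 0.000771), -0.41 against NC replicates 1 and 2 (limma adjusted p = 0.322) and -0.48 with 10 Mb medians removed (limma adjusted p = 0.347). SEMA7A, a lipid-anchored semaphorin that binds PLXNC1 and integrins, had 10.5 to 11.9 in siRNA libraries, against 17.9 and 26.9 in NC replicates 1 and 2 and 4.53 and 3.32 in NC replicates 3 and 4. The siRNA values lay between the NC pairs (limma adjusted p = 0.784 over all 8 libraries). SEMA3B, SEMA4F and SEMA6C averaged under 4 in both groups and did not pass (limma adjusted p = 0.431, 0.91 and 0.696). SEMA3B passed against NC replicates 1 and 2 alone (log2 change -0.85, limma adjusted p = 0.00849) but not against NC replicates 3 and 4 (0.18, limma adjusted p = 0.545).

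Plexins are the semaphorin receptors, and 3 of the 7 listed fell and none rose, where 20.8% of all genes were lower and 21.7% higher. PLXNB3, a plexin-B receptor known as a partner of SEMA5A, had 10.9, 11.7, 10.8 and 13.4 in siRNA replicates 1 to 4, against 31.2, 29.7, 28.3 and 44.5 in NC replicates 1 to 4. Every siRNA library was lower than every NC library. The means were 11.7 ± 1.19 in siRNA libraries and 33.4 ± 7.48 in NC libraries (SD, n = 4 each), 2.86-fold lower (log2 change -1.42, SE 0.16, limma adjusted p = 0.000221). It lies on chromosome X from 153764196 to 153779346, and its exons overlap SRPK3 on the same strand, so shared reads leave its value uncertain. PLXND1, known from blood vessels and as the receptor of SEMA3E, fell 1.80-fold. Its means were 142.5 ± 8.77 in siRNA libraries and 256.3 ± 47.3 in NC libraries (SD, n = 4 each, limma adjusted p = 0.00152).

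Plexins of the A class act with neuropilins as receptors of class 3 semaphorins. PLXNA2 fell by a smaller amount, 1.27-fold, with 98.7 ± 4.49 in siRNA libraries and 125.2 ± 18.4 in NC libraries (SD, n = 4 each, limma adjusted p = 0.0487). Its groups overlapped, and it did not pass in 7 of the 8 fits that left out 1 library (the highest limma adjusted p was 0.124). Its log2 change was -0.33, and -0.53 with 10 Mb medians removed. PLXNA1, with the highest level per kb of the 7 plexins, had 268, 288, 280 and 300.4 in siRNA replicates 1 to 4, against 295, 323, 253 and 238 in NC replicates 1 to 4. The groups overlapped, with a log2 change of 0.05 (SE 0.11, limma adjusted p = 0.77). PLXNA1 passed against NC replicates 3 and 4 alone (log2 change 0.21, limma adjusted p = 0.0243) but not against NC replicates 1 and 2 (-0.12, limma adjusted p = 0.21). PLXNA3 was at 153.1 to 173.6 in siRNA libraries, against 217 and 195 in NC replicates 1 and 2 and 62.5 and 80.4 in NC replicates 3 and 4 (limma adjusted p = 0.436); its exons overlap LAGE3 on the other strand. PLXNB1, the SEMA4D receptor that can couple to MET, and PLXNC1, the SEMA7A receptor, did not pass (limma adjusted p = 0.712 and 0.289), and PLXNC1 overlaps CEP83 on the other strand. PLXNC1 passed against NC replicates 1 and 2 alone (log2 change 0.62, limma adjusted p = 0.0191) but not against NC replicates 3 and 4 (-0.041, limma adjusted p = 0.86). The 80 genes of the 10 Mb around PLXNB1 had a median log2 change of 0.48. With 10 Mb medians removed, PLXNB1 was lower in siRNA libraries (log2 change -0.58, limma adjusted p = 0.00939).

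NTN4 encodes a netrin that resembles laminin chains and sits in basement membranes. It had the second highest level per kb of the 33 genes, averaged over the 8 libraries. Its values were 226, 236, 254 and 248 in siRNA replicates 1 to 4, against 526, 600, 169 and 139 in NC replicates 1 to 4. The siRNA values lay between the NC pairs, above replicates 3 and 4 and below replicates 1 and 2. With all 8 libraries the log2 change was -0.29 (SE 0.45, limma adjusted p = 0.642). Against NC replicates 1 and 2 alone NTN4 was lower in siRNA libraries (-1.22, limma adjusted p = 2.56e-06), and against NC replicates 3 and 4 alone it was higher (0.65, limma adjusted p = 9.63e-05).

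UNC5B, a netrin receptor on chromosome 10 (71212570 to 71302864, plus strand), showed the widest gap between the NC pairs. It had 8.90, 9.76, 8.91 and 9.94 in siRNA replicates 1 to 4, against 24.4, 29.7, 0.325 and 0.443 in NC replicates 1 to 4. The last 2 rest on 15 and 18 reads, against 928 and 1102 reads in NC replicates 1 and 2. The mean of NC replicates 1 and 2 was 70.4 times that of NC replicates 3 and 4. UNC5B did not pass with all 8 libraries (log2 change 0.74, SE 1.04, limma adjusted p = 0.597), and the sign depends on the scale, since the arithmetic mean was 9.38 ± 0.55 in siRNA libraries and 13.7 ± 15.5 in NC libraries (SD, n = 4 each). UNC5B was lower than in NC replicates 1 and 2 (log2 change -1.43, limma adjusted p = 1.37e-05) and higher than in NC replicates 3 and 4 (log2 change 2.91, limma adjusted p = 1.18e-07).

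UNC5CL, which is named for its likeness to UNC5C and is not an established netrin receptor, had 3, 4, 0 and 16 reads in siRNA replicates 1 to 4, against 77, 53, 52 and 83 in NC replicates 1 to 4. The 0 allows up to 3 reads, a table value of 0.0925, a limit that covers counting error only. It fell (log2 change -1.15, SE 0.20, limma adjusted p = 0.00188), but its exons overlap OARD1 on the same strand, so its value is uncertain. The 57 genes of the 10 Mb around it had a median log2 change of -0.62. With 10 Mb medians removed, UNC5CL was at -0.69 (limma adjusted p = 0.0248).

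ROBO1, the widely expressed Slit receptor, had 67.4, 81.2, 81.5 and 82.6 in siRNA replicates 1 to 4, against 86.6, 73.2, 140.3 and 157.7 in NC replicates 1 to 4. The siRNA values overlapped NC replicates 1 and 2 and lay below replicates 3 and 4 (log2 change -0.48, SE 0.24, limma adjusted p = 0.136). It passed against NC replicates 3 and 4 alone (log2 change -0.92, limma adjusted p = 1.47e-05), and likewise when NC replicate 2 was left out (log2 change -0.67, limma adjusted p = 0.0249). ROBO3, a divergent family member, averaged 2.52 ± 0.647 in siRNA libraries and 1.53 ± 1.11 in NC libraries (SD, n = 4 each, limma adjusted p = 0.169), and passed without NC replicate 2 (log2 change 0.82, limma adjusted p = 0.0258). It passed against NC replicates 3 and 4 alone (1.03, limma adjusted p = 0.00231) but not against NC replicates 1 and 2 (0.089, limma adjusted p = 0.769).

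CNTN6, a neural contactin on chromosome 3 (1092576 to 1404217, plus strand), had the largest fold of the 33 genes, and was in the table only through the siRNA libraries. It had 15.0, 17.5, 21.5 and 21.3 in siRNA replicates 1 to 4, against 0.947, 0.215, 0.260 and 0.689 in NC replicates 1 to 4. The groups were far apart, at 420 to 697 reads in siRNA libraries and 8 to 36 reads in NC libraries. The means were 18.8 ± 3.15 in siRNA libraries and 0.528 ± 0.352 in NC libraries (SD, n = 4 each), 35.7-fold higher, with a log2 change of 3.71 (SE 0.20, limma adjusted p = 8.55e-06). Its change was 3.67 against NC replicates 1 and 2 and 3.75 against NC replicates 3 and 4. With a pseudocount of 5 the log2 change of CNTN6 was 2.10, below the log2 change of EPHB2, which was 2.35.

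**Figure D3:**
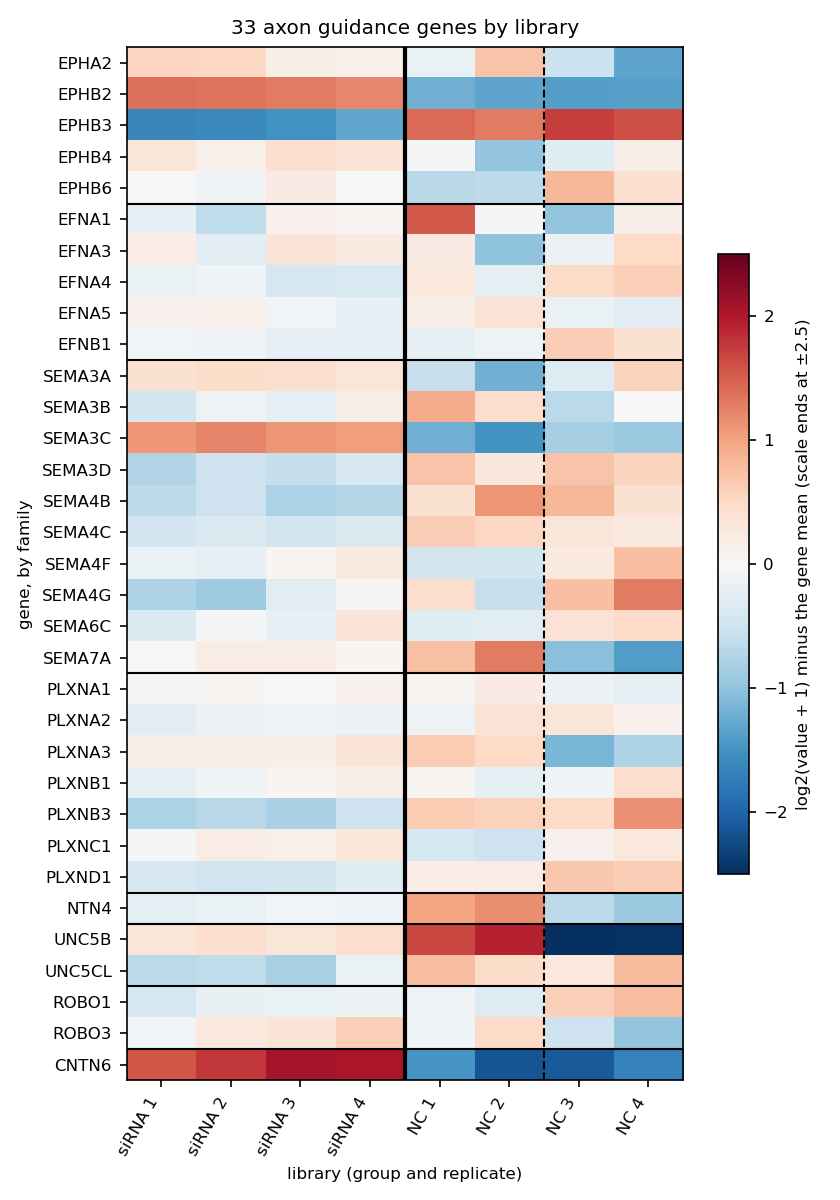
Log2(value + 1) of the 33 genes in each library, centred on the gene's mean over the 8 libraries, with families separated by lines, siRNA libraries left of the thick line and the NC pairs split by the dashed line. The 4 siRNA columns resemble each other, while the columns of NC replicates 1 and 2 and NC replicates 3 and 4 differ most for UNC5B, SEMA7A, NTN4 and PLXNA3.

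Set against each NC pair, the members' calls differed. These comparisons share the siRNA libraries, so they are not independent, and each leaves 2 NC libraries. Against NC replicates 1 and 2, 7 members rose and 12 fell, which is 57.6% of the members beside 57.8% of all genes (29.7% higher and 28.1% lower). Against NC replicates 3 and 4, 11 rose and 13 fell, which is 72.7% beside 65.9% (33.5% higher and 32.4% lower). Called against both pairs in the same direction were 4 higher and 7 lower members, where all genes gave 19.5% higher and 17.7% lower; without CNTN6, SEMA3D and UNC5CL, which were in the table only through 1 group, they were 3 and 5 of 30. They are EPHB4 and 10 of the 12 genes called over all 8 libraries; EFNA4 and PLXNA2 are the other 2. In opposite directions against the pairs were EPHB6, SEMA7A, PLXNA3, NTN4 and UNC5B, 5 of 33 beside 5.93% of all genes.

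The siRNA values lay wholly above all NC values for 3 members and wholly below for 7, which is 30.3% of the members beside 43.3% of all genes; without the same 3 genes these were 2 and 5 of 30. For 6 members, 18.2% beside 9.18% of all genes, they lay between the NC pairs: SEMA7A, PLXNA3, NTN4 and UNC5B above replicates 3 and 4 and below replicates 1 and 2, and EPHB6 and SEMA4F the other way. For the other 17 the groups overlapped in another manner. The coefficient of variation was larger among NC libraries than among siRNA libraries for 30 of the 33 members, 90.9% beside 84.5% of all genes. Its median over the members was 10.2% in siRNA libraries and 35.7% in NC libraries, beside 8.63% in siRNA libraries and 21.5% in NC libraries over all genes.

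Levels per kb of exon spread widely. In siRNA libraries the highest means were those of EPHA2 (89.7), NTN4 (57.8), PLXNA1 (26.0) and EFNB1 (18.8), and the lowest that of SEMA3D (0.0429). In NC replicates 1 and 2 NTN4 led at 135.1, ahead of EPHA2 at 89.5, and in NC replicates 3 and 4 EPHA2 (38.3) and NTN4 (37.0) lay close together. PLXND1 and EFNB1 followed at 30.5 and 30.0 there. EPHA2 values spread from 322 to 426 in siRNA libraries and from 117 to 481 in NC libraries, so its order relative to NTN4 is not fixed within the NC group.

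**Figure D4:**
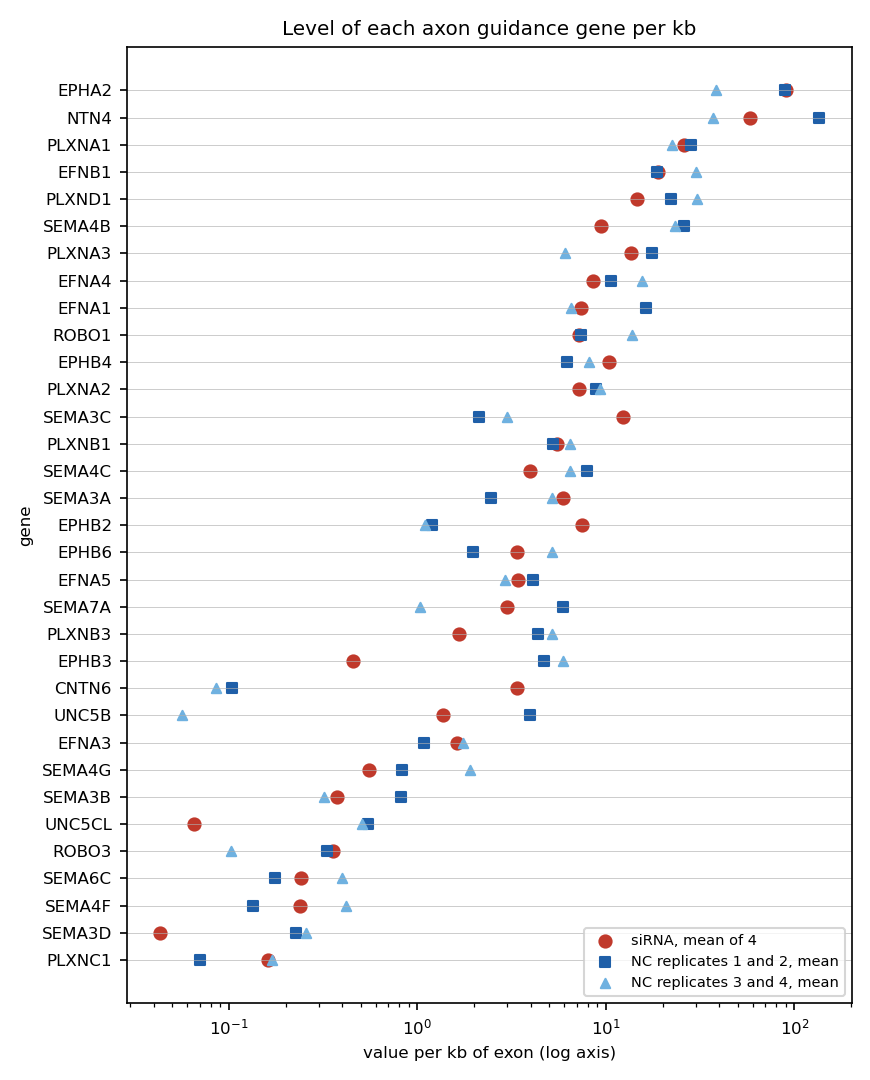
Mean table value per kb of exon for each of the 33 genes, on a log axis, in the siRNA libraries (red circles), NC replicates 1 and 2 (dark blue squares) and NC replicates 3 and 4 (light blue triangles), ordered by the mean over 8 libraries. EPHA2 and NTN4 are at the top, and EPHB2, SEMA3C and CNTN6 show red circles to the right of both NC marks.

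Of 92 further genes of the pathway, partners of these receptors and effectors downstream of them, 72 were listed, and 19 rose and 15 fell. That is 47.2% beside 42.5% of all genes, with a median log2 change of 0.063 beside 0.012. The 15 include DPYSL4, at 0.358 to 0.831 in siRNA libraries and 1.52 to 4.52 in NC libraries. It was in the table only through the NC libraries, so its call is no support in any count of further pathway genes. The adhesion partners had 4 increases and 1 decrease among 6, where 21.7% of all genes were higher and 20.8% lower. L1CAM, the neural adhesion molecule, rose 4.16-fold to 12.3 ± 2.70 in siRNA libraries, against 2.95 ± 1.88 in NC libraries (SD, n = 4 each, limma adjusted p = 0.00294). CNTNAP1, a contactin-associated protein, rose 3.21-fold to 8.21 ± 1.87 in siRNA libraries, against 2.56 ± 1.23 in NC libraries (SD, n = 4 each, limma adjusted p = 0.00222). FLRT2, a ligand of UNC5 receptors, rose 4.03-fold to 15.3 ± 2.12 in siRNA libraries, against 3.80 ± 2.86 in NC libraries (SD, n = 4 each, limma adjusted p = 0.0036). The folds over each NC pair differed: FLRT2 was 2.60-fold higher than in NC replicates 1 and 2 and 8.92-fold higher than in NC replicates 3 and 4, and L1CAM was 2.71-fold higher than in NC replicates 1 and 2 and 8.98-fold higher than in NC replicates 3 and 4. The related FLRT1, at 1.47 ± 0.451 in siRNA libraries (SD, n = 4), had 5.02, 9.26, 0.477 and 0.443 in NC replicates 1 to 4 and did not pass (limma adjusted p = 0.567). FLRT1 was named after its values were seen, for its split between the NC pairs.

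Of the kinases, GTPases and adaptors, 10 of 32 rose and 6 fell, beside 21.7% and 20.8% of all genes. The exchange factor KALRN rose 3.10-fold (limma adjusted p = 0.0026), with 5.44-fold over NC replicates 1 and 2 and 2.17-fold over NC replicates 3 and 4. RND3, a small GTPase that opposes RHOA signalling, rose 2.78-fold to 245 ± 23.7 in siRNA libraries, against 88.1 ± 38.2 in NC libraries (SD, n = 4 each, limma adjusted p = 0.00265), with 2.02-fold over NC replicates 1 and 2 and 4.44-fold over NC replicates 3 and 4. ARHGEF11, an exchange factor that binds plexin-B receptors, fell to 82.5 ± 5.56 in siRNA libraries, against 189.6 ± 11.1 in NC libraries (SD, n = 4 each, limma adjusted p = 3.28e-05). ARHGEF11 lies in the chromosome 1 stretch of EFNA4, and its log2 change was -1.19, and -0.56 with 10 Mb medians removed (limma adjusted p = 0.00258). CHN1, a RAC inhibitor downstream of Eph receptors, fell 2.74-fold (limma adjusted p = 0.00294). Among 22 genes of the cytoskeleton 3 rose and 7 fell, beside the same shares of all genes. The 7 include DPYSL4, which was in the table only through the NC libraries. The semaphorin mediator DPYSL2 fell 2.32-fold, to 29.2 ± 5.63 in siRNA libraries, against 67.5 ± 12.5 in NC libraries (SD, n = 4 each, limma adjusted p = 0.000931), as did the ENA/VASP family gene EVL, 2.39-fold (limma adjusted p = 0.00503) and the cofilin phosphatase gene SSH1, 1.79-fold (limma adjusted p = 0.0043). Neither neuropilin passed over all 8 libraries, nor did any of the 3 listed netrin and RGM partners, among them the netrin receptor gene NEO1. DAG1, another partner, had a log2 change of -0.96 (limma adjusted p = 0.055). It passed with edgeR (adjusted p = 0.0292), DESeq2 (adjusted p = 0.00321) and 10 Mb medians removed (limma adjusted p = 0.0072). It also passed against NC replicates 3 and 4 (limma adjusted p = 0.000804) but not against NC replicates 1 and 2. NRP1 fell against NC replicates 1 and 2 alone (limma adjusted p = 0.00155). DAG1 and NRP1 were named after their values were seen. Of 4 listed Slit partners 1 rose (ARHGAP39) and 1 fell (GPC1), beside 21.7% and 20.8% of all genes. The log2 change of GPC1 was -0.64, and -0.034 with 10 Mb medians removed (limma adjusted p = 0.9). That of ARHGAP39 was 1.09, and 1.14 with 10 Mb medians removed (limma adjusted p = 0.00786).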

How the data were processed

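Per the labels, 8 libraries of poly(A)-selected RNA from HCCLM3 cells were read as paired ends of 150 bp. The deposited table holds 1 scaled read signal per gene and library, and the deposited values show that reads were divided by a scaled library size: 100% were whole multiples of 1 step to within 0.02 reads, so reads were recovered (4 columns start at 2 steps). The submitters' processing notes name HTSeq 0.12.4, HISAT2, Trimmomatic and FastQC, besides edgeR, DESeq2 and hg38. How each was set, and whether strand was used, is not given in the sources used here, so reads of overlapping genes are uncertain. Genes with low values had been removed: all 11818 exceeded 1 in at least 3 libraries.

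The main test was limma 3.58.1 (trend and robust; R 4.3.3) on log2(value + 1), for 11812 genes at 1 or more in at least 4 libraries (6 were not tested), fitted on group alone, with p adjusted over all genes by Benjamini-Hochberg. This scale understates changes of low genes. Folds are ratios of group means. Alternatives were count tests on the recovered reads by edgeR 4.0.16 (5002 genes called) and DESeq2 1.42.0, pseudocounts of 0.1 and 5, library totals, other filters and thresholds, a replicate block, leaving out libraries, and removal of medians of 10 Mb bins with at least 10 genes. Each bin median was taken within a library, over values centred on the gene's mean. The removal therefore differs from subtracting the median log2 changes given above. The procedures were tested on simulated counts with the same dispersion for every gene and no split of the NC libraries into pairs. That test does not cover the spread of the NC libraries here.

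Positions, overlaps and exon lengths came from GENCODE v29 (GRCh38), matched by symbol. The exon length of a gene counts each base of its annotated exons once, over all transcripts, whichever are expressed. Promoter windows came from RefSeq, at the first listed start of each gene, with 31 of 33 members matched. Members and lists were chosen with earlier results of these data known. Given in full are UNC5B, CNTN6, members past the threshold with an absolute log2 change of at least 1 and a mean of at least 1, and the member of each family with the highest level per kb; of the further pathway genes, the 5 largest increases and 5 largest decreases with a mean of at least 5.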

Additional observations from a re-analysis of the deposited data

Results flagged for a closer look

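In 86 groups of 4 values (each member and each named pathway gene in each group), the highest or lowest library was set against the others, and chance alone gives about 1 such gap in 20 groups. PLXNA3 was at 173.6 in siRNA replicate 4, above 153.1 to 155.4 in the other siRNA libraries. ROBO1 was at 67.4 in siRNA replicate 1, below 81.2 to 82.6 in the other siRNA libraries.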

How the results depend on the processing

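The counts of members (3 higher, 9 lower) held within 1.5 times under edgeR, DESeq2, library totals, both pseudocounts, both filters, adjusted p under 0.01 and bin removal. Without NC replicates 1 and 2, 11 members were higher, as were 31 of the further pathway genes and 3953 of all genes called higher, with 3829 of all genes called lower; without NC replicates 3 and 4, 7 members were higher. With a minimum change of 1, 5 members were lower, 7 and 5 pathway genes higher and lower, and the counts of all genes called higher and of all genes called lower were 750 and 694; at adjusted p under 0.01 they were 1570 and 1464. Leaving out each library gave 3 to 5 members higher. The cause was not tested. Of the 12 calls, 10 held in all 8 such fits, 12 with edgeR and with DESeq2, and 11 with bin medians removed; EFNA4 did not pass on library totals (limma adjusted p = 0.0715).

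The log2 changes that turned direction belonged to members that did not pass over all 8 libraries, and to EFNA4 with bin medians removed (0.089). EPHB6, SEMA7A and UNC5B were at -0.095, -0.22 and -0.54 with edgeR and at -0.10, -0.24 and -0.57 with DESeq2. Without NC replicates 1 and 2, EPHB6 was at -0.59, EFNA1 0.25, EFNA3 -0.067, EFNA5 0.22, SEMA3B 0.18, PLXNC1 -0.041 and NTN4 0.65. Without NC replicates 3 and 4, EFNB1 was at 0.020, SEMA4F 0.43, SEMA6C 0.23, SEMA7A -0.90, PLXNA1 -0.12, PLXNA3 -0.37, PLXNB1 0.056 and UNC5B -1.43. With bin medians removed, EFNA1, SEMA6C and PLXNA1 were at 0.30, 0.51 and -0.10. Leaving out 1 library each gave EPHB6 -0.16 to 0.35, SEMA7A -0.22 to 0.68, UNC5B -0.0039 to 1.51, SEMA4F -0.21 to 0.20, EFNA5 -0.12 to 0.092, EFNA1 -0.72 to 0.12, EFNA3 -0.074 to 0.43, NTN4 -0.64 to 0.056, SEMA6C -0.25 to 0.0098, PLXNA1 -0.025 to 0.12 and PLXNB1 -0.17 to 0.053.

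Same-numbered libraries of the groups correlated at -0.068, 0.15, -0.066 and 0.16, and not every library correlated best with its own number. Such weak correlations cannot decide whether the numbers pair the libraries, and the labels do not say. With a replicate block 4 members were higher and 8 lower: EPHB4 and SEMA4G passed (limma adjusted p = 0.0417 and 0.016), and EFNA4 and PLXNA2 did not (limma adjusted p = 0.0986 and 0.053). Depth limits SEMA3D and UNC5CL most, at 16 reads or fewer per siRNA library.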
